A study of Mus musculus with 9 samples.

Results

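The 37 genes of the mouse mitochondrial genome, found as the rows of the expression table whose symbol starts with mt-, were followed through 9 libraries. They were 2 ribosomal RNA genes, 13 protein-coding genes and 22 transfer RNA genes, of 46517 genes in all. The libraries came from aged C57BL/6 mice, all over 18 months old: 2 lymph nodes of plckGAPDH mice (animals 455 and 508), 4 spleens of plckGAPDH mice (animals 343, 508 and 547 and 1 spleen whose column carries no animal number, called the unnumbered spleen) and 3 spleens of wild-type mice (1, 4 and 5). plckGAPDH mice carry a Gapdh transgene driven by the Lck promoter, which is active in T-lineage cells, and the labels describe them as mice that develop tumours. The libraries hold RNA of whole cell suspensions, so fewer cells of a type and less RNA per cell cannot be told apart. The labels also name a plckGAPDH spleen of animal 331, no column bears that number, and the unnumbered spleen was not assigned to it. Whether the 4 plckGAPDH spleens came from 4 animals is therefore not settled, and no wild-type lymph node was included, so genotype was compared in spleen alone. The titles mark lymph node 455 as MES and lymph node 508 as LN, and a difference in site was not tested. The p-values below refer to the spread between the libraries given here, which may in part be technical.

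The mitochondrial genome is a small circle that is transcribed from both strands into long precursors. The precursors are cut at the transfer RNAs that lie between the other genes, which releases the ribosomal RNAs and the messengers. The messengers encode core subunits of the respiratory chain and of ATP synthase, the ribosomal RNAs (mt-Rnr1, the 12S RNA of the small subunit, and mt-Rnr2, the 16S RNA of the large subunit) build the mitochondrial ribosome, and the transfer RNAs serve its translation. The proteins that copy, transcribe, process and translate this genome are encoded in the nucleus. Together these RNAs are known as one of the most abundant classes in the total RNA of a cell.

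Parts of the mitochondrial genome also lie as copies in the nuclear genome, and 7 of the 13 protein-coding genes had a near-identical copy with a row of its own in the table. All 7 copies lie side by side on chromosome 1 (minus strand, GRCm38), between chr1:24611535-24612410 (Gm28439) and chr1:24615706-24616197 (Gm29216). The copies matched mt-Co2, mt-Atp6, mt-Co3, mt-Nd4l and mt-Nd4 at 100% over 681, 678, 783, 294 and 876 aligned bases. The copy of mt-Nd3, Gm28438, differed at 1 of 345 aligned bases, and the copy of mt-Co1, Gm29216, at 1 of 483. Mouse mt-Co2 and its copy Gm28661 are shown at their 3′ ends, because the only difference between the 2 annotated transcripts is the length of that end. The capitals mark the 3 bases that the copy's transcript lacks; the lines show chrM:7637-7696 (plus strand) and chr1:24614885-24614941 (minus strand).
mt-Co2: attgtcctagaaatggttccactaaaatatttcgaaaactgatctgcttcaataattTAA
Gm28661: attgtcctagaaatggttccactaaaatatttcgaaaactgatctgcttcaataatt

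The 5′ ends of mt-Nd3 (chrM:9459-9518, plus strand) and Gm28438 (chr1:24613060-24613119, minus strand) are shown because they hold the single base at which the aligned parts differ. The capital marks it, and the substitution is T3C, counted from 1 at the first base of mt-Nd3.
mt-Nd3: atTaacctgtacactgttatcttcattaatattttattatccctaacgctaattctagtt
Gm28438: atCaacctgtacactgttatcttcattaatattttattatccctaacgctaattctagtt

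The start of the aligned part of mt-Co1 (chrM:6390-6449, plus strand) and Gm29216 (chr1:24616129-24616188, minus strand) holds the single difference within that part, A1066T, counted from the first base of mt-Co1 and marked by the capital.
mt-Co1: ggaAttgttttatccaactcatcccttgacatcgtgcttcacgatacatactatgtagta
Gm29216: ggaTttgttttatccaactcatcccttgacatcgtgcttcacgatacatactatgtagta

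Protein-coding genes of this genome can also overlap. Messenger here means the RNA counted at a protein-coding gene. Whether overlapping genes of the same strand lay on a shared RNA was not tested. The last 43 bases of mt-Atp8 are the first 43 bases of mt-Atp6 (chrM:7927-7969). A fragment that covers them lies on both genes. The end of mt-Atp8 is shown from chrM:7879-7969, plus strand, with the shared bases in capitals.
mt-Atp8: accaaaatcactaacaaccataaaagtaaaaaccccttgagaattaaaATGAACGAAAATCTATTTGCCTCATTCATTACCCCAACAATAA

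The other overlaps were short, with 7 bases between mt-Nd4l and mt-Nd4, 1 base between mt-Atp6 and mt-Co3, and 14 bases between mt-Nd5 and mt-Nd6, which are read from opposite strands. Copies were sought only among annotated single-transcript genes with a row in the table, in the sense direction, and not in the nuclear genome itself. In that search no copy of at least 90% identity over 100 bases was found for mt-Rnr1, mt-Rnr2, mt-Nd1 or mt-Atp8. Copies without a row of their own were not looked for. The other copies found, at 90.7% to 97.6% identity, stood under 1 FPKM.

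Values are the deposited FPKM (fragments scaled to gene length and library size). Depth was estimated from the smallest steps of the FPKM and lay between 23900000 and 34600000 fragments per library. Some libraries stood apart in cell content, and 1 in Xist, an RNA of the inactive X chromosome rather than a cell type marker. Summed FPKM of 6 erythroid markers was between 1.78 and 2144 in 8 libraries and 74167 in wild-type spleen 5. Summed FPKM of 6 neutrophil markers was 4.33 in wild-type spleen 4, against 549 to 3363 in the other spleens. Wild-type spleen 5 had 0.09 FPKM of Xist, against 31.2 to 59.7 FPKM in the other 8 libraries. Sex was not a term in any fit. Summed FPKM of 5 plasma cell markers was 2563 and 2317 in lymph nodes 455 and 508 and 4390 in plckGAPDH spleen 508, against 70.3 to 323 in the other 6 libraries. That of 5 macrophage markers ran from 10.6 to 224, and that of 4 megakaryocyte markers from 0.42 to 84.8, both highest in wild-type spleen 5. Summed FPKM of 5 T cell markers was 84.3 or more, and that of 5 B cell markers 284 or more, in every library. Markers of exocrine pancreas summed to 224 FPKM in lymph node 455, 124 FPKM in plckGAPDH spleen 343 and 172 FPKM in wild-type spleen 1, against 2.82 to 14 FPKM in the other 6 libraries. Markers of fat summed to 1.30 FPKM or less and those of striated muscle to 3.95 FPKM or less in every library. The part of these differences in the mitochondrial values was not tested.

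The 2 ribosomal RNAs were the largest mitochondrial class in every library. They took an estimated 51.7% and 39.1% of all fragments in plckGAPDH lymph nodes 455 and 508. In plckGAPDH spleens they took 48.7% (343), 29.2% (508), 24.8% (547) and 33.9% (unnumbered), against 38.0%, 53.5% and 23.7% in wild-type spleens 1, 4 and 5. The mean was 34.2% ± 10.4 in plckGAPDH spleens (SD, n = 4) and 38.4% ± 14.9 in wild-type spleens (SD, n = 3), so the spread within each genotype exceeded the difference between them. The highest and the lowest share of the series were both in wild-type spleens. The shares rest on FPKM multiplied by an effective length (gene length less the mean fragment length plus 1), and no interval was computed for them.

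mt-Rnr2, the 16S RNA, carried most of this. It stood at 327320 and 244918 FPKM in lymph nodes 455 and 508, at 311970, 179577, 166276 and 221571 FPKM in plckGAPDH spleens 343, 508, 547 and unnumbered, and at 239712, 344361 and 148455 FPKM in wild-type spleens 1, 4 and 5. mt-Rnr1, the 12S RNA, stood at 65907 and 53790 FPKM in lymph nodes 455 and 508, at 58441, 47138, 16832 and 31481 FPKM in the plckGAPDH spleens, and at 50271, 60087 and 33004 FPKM in the wild-type spleens. For both RNAs the ranges of the 3 groups overlapped. plckGAPDH spleen 547 was lowest of its group in both.

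Both RNAs come from the same precursor, yet their ratio was not constant. mt-Rnr2 over mt-Rnr1 FPKM was 4.97 and 4.55 in the lymph nodes, 5.34, 3.81, 9.88 and 7.04 in plckGAPDH spleens 343, 508, 547 and unnumbered, and 4.77, 5.73 and 4.498 in wild-type spleens 1, 4 and 5. The 2 highest ratios were in plckGAPDH spleens 547 and unnumbered. The other 7 libraries lay between 3.81 and 5.73, and the genotypes overlapped. Spleen 547 also had the highest summed FPKM of 5 proliferation markers, 503, against 293 in the unnumbered spleen and 35.8 to 144 in the other 7 libraries. The part of that difference in the ratio was not tested. Whether library preparation treated the 2 RNAs alike in every library was not tested either.

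**Figure D1:**
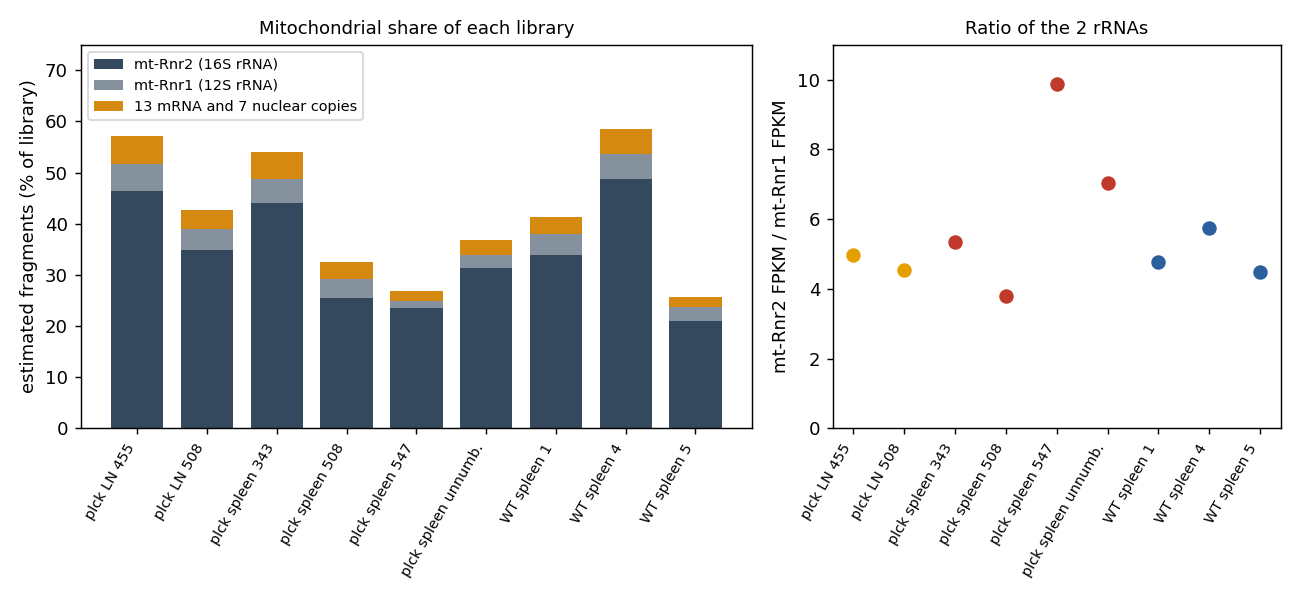
Left, estimated share of all fragments (% of library) taken by mt-Rnr2, mt-Rnr1 and the 13 messengers with their 7 nuclear copies, 1 stacked bar per library; right, mt-Rnr2 over mt-Rnr1 FPKM, 1 point per library. Ribosomal RNA took 23.7% (wild-type spleen 5) to 53.5% (wild-type spleen 4), and the ratio was highest in plckGAPDH spleen 547, at 9.88.

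All 22 transfer RNA genes were listed at 0 FPKM in all 9 libraries. They are 59 to 75 bases long, shorter than the mean fragment of 162 to 170 bases fitted for these libraries. A pair of them is shown as an example of what was not counted, the transfer RNA for phenylalanine (mt-Tf, chrM:1-68) and one for leucine (mt-Tl1, chrM:2676-2750), which flank the ribosomal RNA genes on the plus strand.
mt-Tf: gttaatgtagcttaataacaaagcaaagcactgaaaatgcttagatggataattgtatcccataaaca
mt-Tl1: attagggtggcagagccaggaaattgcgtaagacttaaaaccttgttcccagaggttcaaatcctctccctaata

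The same held for genes of that size elsewhere in the table. All 985 single-transcript genes of up to 75 bases outside the mitochondrial genome, and all 1390 of 76 to 100 bases, were at 0 in every library, against 88.3% of the 3328 longer genes of up to 150 bases and 69.7% of the 2074 genes above those of up to 300 bases. The zeros therefore say nothing about transfer RNA levels. They leave 15 mitochondrial genes with values, all of which passed the filter on low values.

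The messengers with a nuclear copy had FPKM that depended on how fragments were divided between the 2 rows, and the sources used here do not say how the authors assigned a fragment that matches both. Row and copy were therefore also added up, as FPKM weighted by effective length, and this sum is called combined. mt-Co2, a core subunit of cytochrome c oxidase, was the extreme case. Its row stood at 49.4 and 43.5 FPKM in lymph nodes 455 and 508, at 32.5, 26.0, 12.1 and 34.2 FPKM in plckGAPDH spleens 343, 508, 547 and unnumbered, and at 0, 13.03 and 17.9 FPKM in wild-type spleens 1, 4 and 5. Gm28661 stood at 13127 and 6423 FPKM in the lymph nodes, at 12488, 6800, 4663 and 6575 FPKM in the plckGAPDH spleens, and at 7294, 10738 and 4495 FPKM in the wild-type spleens. The mitochondrial row thus held at most 0.677% of the pair in any library, and wild-type spleen 1 is listed at 0 for mt-Co2 beside 7294 FPKM for the copy.

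For mt-Co3, another core subunit of cytochrome c oxidase, the lymph nodes stood apart. Its row held 44.5% and 74.4% of the pair with Gm28437 in lymph nodes 455 and 508. It held 7.14%, 18.8%, 18.7% and 4.67% in plckGAPDH spleens 343, 508, 547 and unnumbered, and 5.65%, 8.98% and 9.86% in wild-type spleens 1, 4 and 5. Both lymph nodes were above all 7 spleens; no test of the shares was run. In the lymph nodes the row stood at 7388 and 13483 FPKM and the copy at 9211 and 4652 FPKM.

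The row of mt-Nd3, a small subunit of complex I, held 63.0% and 80.3% of its pair in the lymph nodes, 41.0%, 100%, 61.1% and 41.7% in the plckGAPDH spleens, and 57.1%, 25.9% and 37.8% in the wild-type spleens. In plckGAPDH spleen 508 the row stood at 7089 FPKM and Gm28438 is listed at 0. The row of mt-Atp6, the proton channel subunit of ATP synthase, held 6.53% and 8.38% in the lymph nodes, 5.68%, 26.8%, 16.9% and 5.56% in the plckGAPDH spleens, and 7.53%, 4.17% and 5.17% in the wild-type spleens. In both pairs plckGAPDH spleen 508 held the largest share of the row.

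The row of mt-Nd4l held 12.2% to 53.9% over the 9 libraries, and that of mt-Co1, the catalytic subunit of cytochrome c oxidase, 80.7% to 89.7%. The copy of mt-Nd4, Gm28439, is listed at 0 in all 9 libraries, although its 876 aligned bases equal those of mt-Nd4. Pairs with the same identity were thus divided from nearly all to the copy (mt-Co2) to all to the mitochondrial row (mt-Nd4). The pairs differed in coverage, however. The aligned part was 99.6% of mt-Co2, but 63.6% of mt-Nd4 and 31.3% of mt-Co1. The rest of mt-Nd4 and mt-Co1 lies outside the copy, so their shares are not directly comparable with that of mt-Co2.

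**Figure D2:**
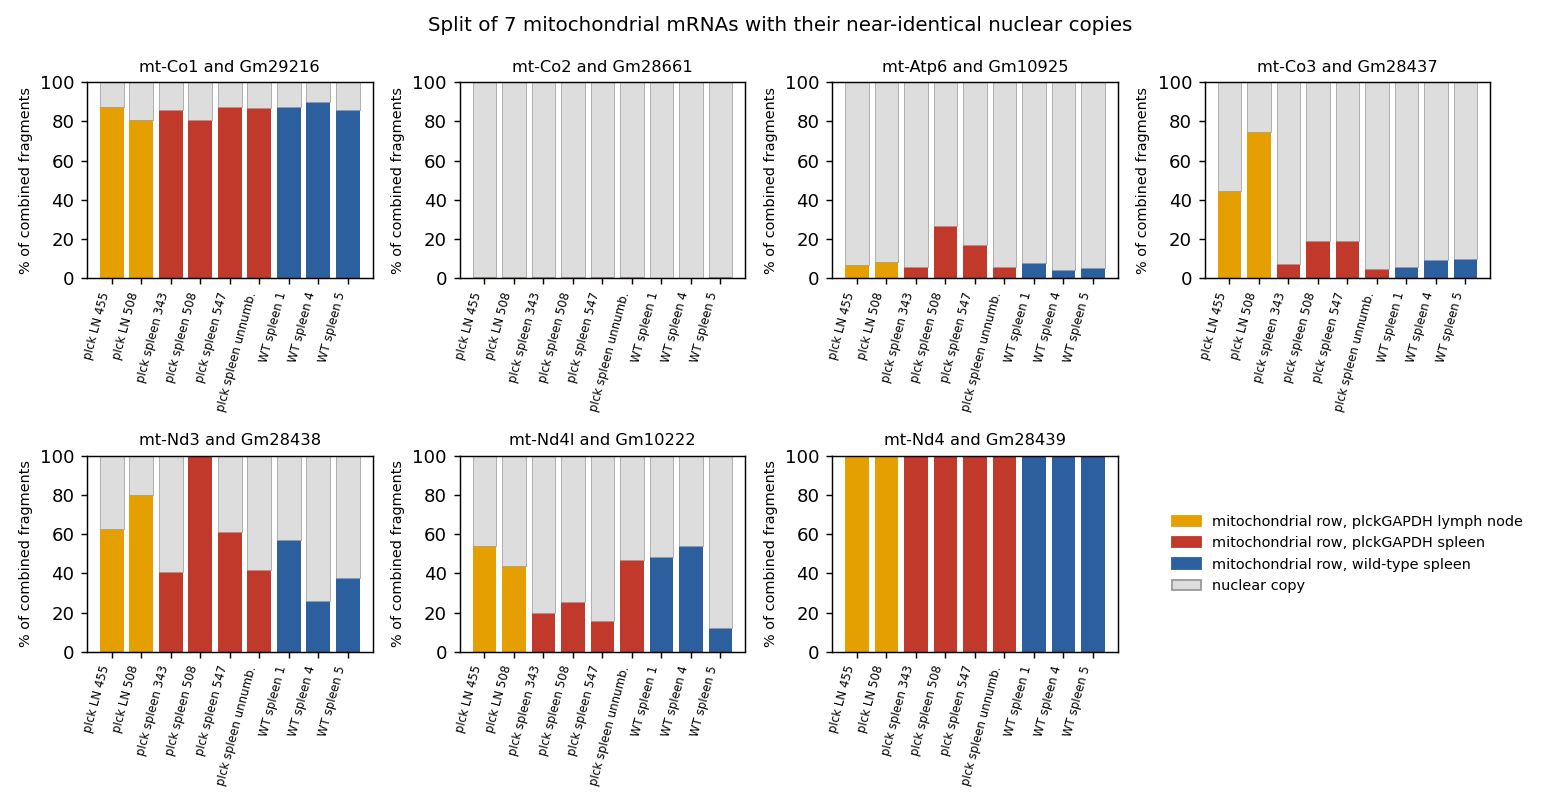
Share of the combined fragments of each pair (%) held by the mitochondrial row (coloured) and by its nuclear copy (grey), 1 bar per library, for 7 pairs. The row held at most 0.677% for mt-Co2, between 4.67% and 74.4% for mt-Co3 with both lymph nodes highest, and 100% for mt-Nd4 in every library.

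With row and copy added up, the order of the messengers was similar in all 9 libraries. mt-Co3 had the highest mean over the 9 libraries, 12770 FPKM, and it was among the 3 highest in every library, between 6631 and 18128 FPKM. mt-Atp8, the short ATP synthase subunit, averaged 12130 FPKM, mt-Co1 9891 FPKM, mt-Co2 8046 FPKM, mt-Atp6 7392 FPKM and mt-Nd3 5171 FPKM. These 6 messengers took the first 6 ranks in every library, and neighbours among them changed places between libraries. The mt-Atp8 level is the least certain of them, because its 204 bases leave an effective length of only 35 to 43 bases. mt-Atp8 also overlaps mt-Atp6, and the part of the overlap in the gap between their levels was not tested.

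Below them the order was fixed for 3 messengers. mt-Nd1, a core membrane subunit of complex I, was the seventh in every library, with a mean of 2762 FPKM. mt-Cytb, the core subunit of complex III, was eighth, with 1810 FPKM, and mt-Nd2, of complex I, ninth, with 589 FPKM. mt-Nd4 (450 FPKM) and mt-Nd5 (397 FPKM) shared ranks 10 and 11, and mt-Nd6 (283 FPKM) and mt-Nd4l (260 FPKM) shared ranks 12 and 13. On the deposited rows alone mt-Co2 ranked 12 or 13 and mt-Atp6 between 6 and 11. mt-Nd4l overlaps mt-Nd4, and the part of that overlap in the gap between their levels was not tested either.

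The messengers varied widely between libraries of the same group. Over all 9, the highest library had 2.73 times (mt-Co3) to 4.89 times (mt-Nd3) the combined FPKM of the lowest. Libraries kept a similar order over the 15 genes with values, with row and copy combined: wild-type spleen 4 was the highest and wild-type spleen 5 the lowest wild-type spleen for all 15, and plckGAPDH spleen 343 was highest of its group for 12 and spleen 547 lowest for 14. Of the lymph nodes, 455 was the higher for 11. On the deposited rows the order of the wild-type spleens differed for mt-Co2, mt-Atp6, mt-Co3 and mt-Nd3. With row and copy together, the 13 messengers took 11.2% and 6.08% of the fragments outside ribosomal RNA in lymph nodes 455 and 508. They took 10.3%, 4.76%, 2.73% and 4.35% in plckGAPDH spleens 343, 508, 547 and unnumbered, against 5.39%, 10.9% and 2.72% in wild-type spleens 1, 4 and 5. The 3 libraries above 10% came 1 from each group.

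Ribosomal RNA was high where the messengers were high. Fragments of ribosomal RNA over fragments of messengers and copies were 9.59 and 10.6 in the lymph nodes, 9.21, 8.67, 12.1 and 11.8 in the plckGAPDH spleens, and 11.4, 10.6 and 11.4 in the wild-type spleens. This ratio spanned 8.67 to 12.1, a narrower range than the shares themselves. mt-Nd6 is the only messenger read from the minus strand. Its FPKM over that of mt-Nd5, which lies beside it on the other strand, was 0.659 and 0.699 in the lymph nodes, 0.703, 0.752, 0.655 and 0.676 in the plckGAPDH spleens, and 0.706, 0.713 and 0.921 in the wild-type spleens. Wild-type spleen 5 was the highest, and the other 8 libraries lay between 0.655 and 0.752.

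**Figure D3:**
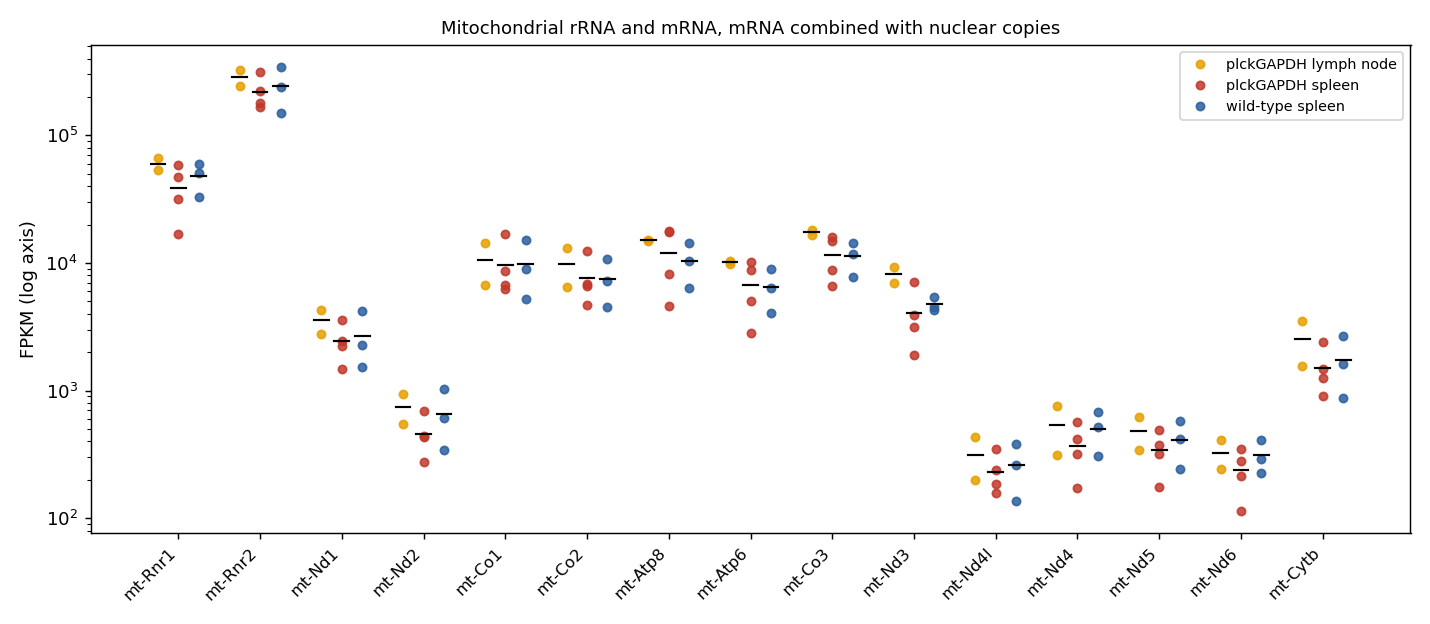
FPKM (log axis) of the 2 ribosomal RNAs and of the 13 messengers combined with their nuclear copies; points are libraries, bars group means, for 2 lymph nodes and 4 spleens of plckGAPDH mice and 3 wild-type spleens. The genotypes overlap for all 15 genes, and the order of the genes is similar in the 3 groups.

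The first comparison asked whether the spleens of plckGAPDH mice differed from wild-type spleens in mitochondrial transcripts. limma was fitted on log2(FPKM + 1) over all 12607 genes with 1 FPKM in at least 3 of 7 spleens, and a gene was called at an FDR (false discovery rate, Benjamini-Hochberg) under 0.05. None of the 15 mitochondrial genes was called (1 at an unadjusted p under 0.05), against 1.44% of all genes tested, of which 0.206% were called higher and 1.23% lower in plckGAPDH spleens. None had groups that did not overlap, against 7.27% of all genes tested (3.39% higher and 3.88% lower in plckGAPDH spleens). The median log2 fold change of the 13 messengers was -0.08 on the deposited rows and -0.11 combined, beside 0.02 for all genes tested. With 1 library left out, the median on the deposited rows ran from -0.46 (without wild-type spleen 5) to 0.25 (without wild-type spleen 4). It was 0.08 without plckGAPDH spleen 547.

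mt-Rnr1 differed by -0.42 (SE 0.75) on the log2 scale and mt-Rnr2 by -0.11 (SE 0.84), with FDR 0.977 and 0.996 in limma. The 95% intervals, -2.04 to 1.21 and -1.94 to 1.71, leave room for a change of several-fold in either direction. The largest fold change among the messengers was that of the mt-Co2 row, 1.98 (SE 0.84, limma FDR 0.491). It rested on the small values given above, and was 0.02 (SE 0.63, FDR 0.997) in the limma fit of combined values. mt-Co2 was called when wild-type spleens 4 and 5 were left out (4.67, limma FDR 0.0438), which leaves the library listed at 0 as the only wild-type spleen, and with sample quality weights (4.74, limma FDR 0.00241), which gave that library the weight 24.8 against 0.296 to 2.04 for the others.

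The remaining complex IV and ATP synthase messengers lay near 0 once row and copy were added up. The combined log2 fold change was -0.01 for mt-Co1, -0.01 for mt-Co3 and -0.04 for mt-Atp6, against -0.06, 0.38 and 0.96 on the deposited rows. mt-Atp8, for which no copy with a row of its own was found, was at 0.09 (SE 0.71, limma FDR 0.996). Combined values of mt-Co1 were 16861, 6212, 6724 and 8710 FPKM in plckGAPDH spleens 343, 508, 547 and unnumbered, against 9011, 15253 and 5201 FPKM in wild-type spleens 1, 4 and 5. The ranges were almost the same in the 2 genotypes.

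All 7 messengers of complex I, the entry point of NADH electrons, had combined fold changes below 0, while the deposited row of mt-Nd3 was at 0.18, and none was called. The fold change was -0.08 for mt-Nd1, -0.45 for mt-Nd2, -0.39 for mt-Nd3, -0.11 for mt-Nd4l, -0.50 for mt-Nd4, -0.28 for mt-Nd5 and -0.43 for mt-Nd6. The standard errors ran from 0.51 to 0.61, larger than every one of these values. mt-Nd4 stood at 563, 419, 171 and 317 FPKM in the plckGAPDH spleens, against 519, 677 and 310 FPKM in the wild-type spleens. Its groups overlapped, with spleen 547 lowest. mt-Cytb of complex III was at -0.14 (SE 0.59, limma FDR 0.991).

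The second comparison set the lymph nodes of plckGAPDH mice against the spleens of plckGAPDH mice, in a fit of the 3 groups over all 9 libraries and 13682 genes. None of the 15 mitochondrial genes was called (1 at an unadjusted p under 0.05), against 0.0146% of all genes tested, which is 2 genes, 1 higher (0.00731%) and 1 lower (0.00731%) in lymph nodes. The groups did not overlap for 2 of the 15, both higher in lymph nodes (mt-Co2 and mt-Co3), against 30.5% of all genes tested in either direction and 0.49% in that one. With row and copy combined this was left for mt-Co3 alone. All 15 fold changes were above 0, with a median of 0.58 for the 13 messengers (0.54 combined), while the median of all genes tested was -0.59. With median-of-ratios scaling the median of all genes was -0.01, and that of the messengers was 1.36 (1.31 combined). With each library scaled to the summed FPKM of nuclear genes, the medians were -0.76 for all genes and 0.28 for the messengers, and 13 of 15 fold changes were above 0, with mt-Co1 at -0.16 and mt-Atp6 at -0.10. That sum included the nuclear copies and very abundant non-coding RNAs. Of these, Rn7s1 stood at 745736 FPKM in lymph node 508 and 540720 FPKM in plckGAPDH spleen 508, against 88550 to 283094 FPKM elsewhere. Lymph node 508 and spleen 508 also had the largest nuclear scaling factors, 1.86 and 1.66. None of the 15 was called under either scaling.

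mt-Co3 had the largest fold change of the 15, 3.14 (SE 0.75), with an unadjusted p of 0.00146 and FDR 0.359 in limma. Its row stood at 7388 and 13483 FPKM in lymph nodes 455 and 508, against 1062, 3004, 1243 and 411 FPKM in plckGAPDH spleens 343, 508, 547 and unnumbered. Combined with Gm28437, the pair stood at 16585 and 18128 FPKM in the lymph nodes, against 14875, 15986, 6631 and 8813 FPKM in the plckGAPDH spleens. The combined fold change was 0.68 (SE 0.68, limma FDR 0.495).

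mt-Nd3 kept more of its difference. Its combined FPKM was 7020 and 9235 in lymph nodes 455 and 508, against 3940, 7089, 1889 and 3178 in plckGAPDH spleens 343, 508, 547 and unnumbered. The lymph node of animal 455 lay just under the spleen of animal 508. The fold change was 1.16 (SE 0.65, limma FDR 0.359) combined and 1.48 on the deposited row. It was the largest combined fold change of the 15. The 3 plckGAPDH libraries with the highest combined mt-Nd3, both lymph nodes and spleen 508, were those with plasma cell markers of 2317 or more, against 70.3, 294 and 180 in spleens 343, 547 and unnumbered, and the part of plasma cells in the difference was not tested.

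For the other messengers the combined fold changes ran from 0.15 (mt-Co1) to 0.76 (mt-Atp6). mt-Nd1 was at 0.58, mt-Nd2 at 0.71 and mt-Cytb at 0.73, and the limma FDR of the 15 genes lay between 0.359 and 0.886. mt-Rnr1 was at 0.78 (SE 0.82, limma FDR 0.514) and mt-Rnr2 at 0.41 (SE 0.95, limma FDR 0.755) in the fit of deposited rows. Animal 508, which gave both tissues, had 2787 FPKM of mt-Nd1 in the lymph node and 2430 FPKM in the spleen. Its mt-Cytb was 1567 FPKM in the lymph node and 1480 FPKM in the spleen, and its mt-Nd4 313 FPKM in the lymph node and 419 FPKM in the spleen. Lymph node 455, whose pancreas markers summed to 224 FPKM against 5.62 FPKM in lymph node 508, was the higher of the 2 for these 3 messengers, and the part of that tissue in the values was not tested.

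**Figure D4:**
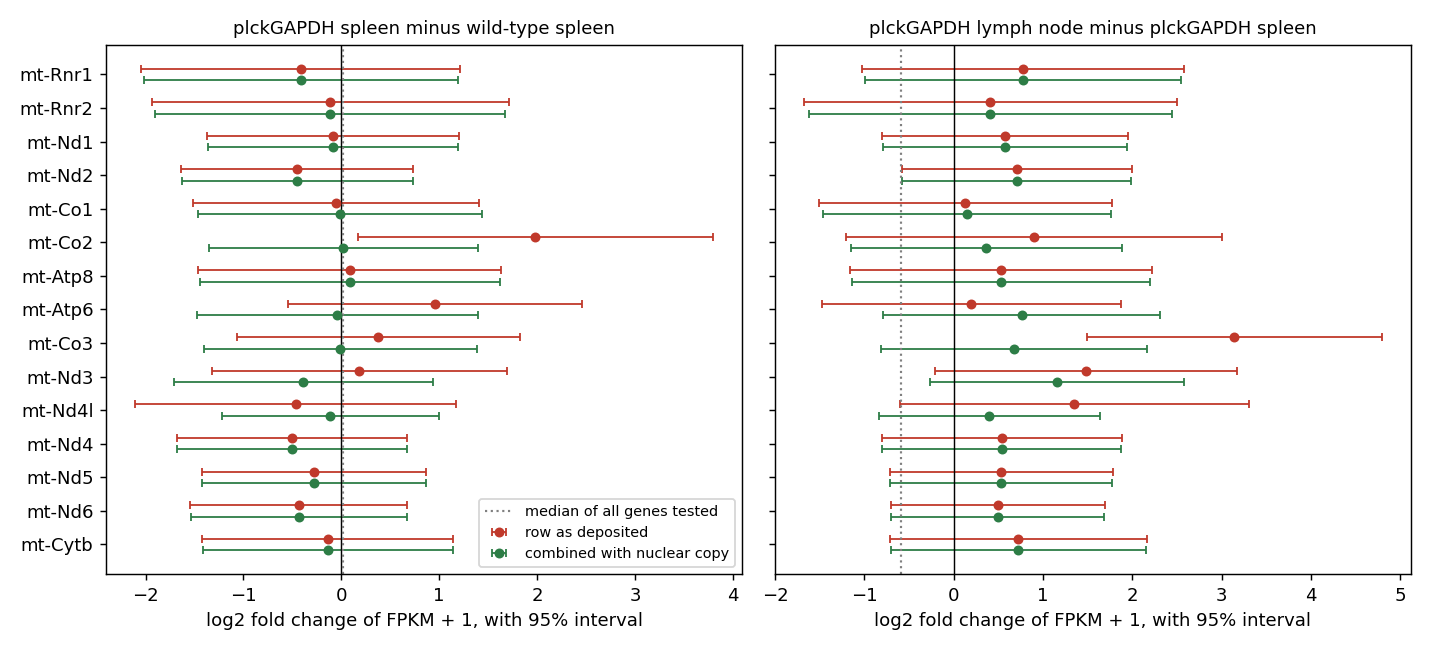
log2 fold changes of FPKM + 1 with 95% limma intervals for the 15 mitochondrial genes, on the rows as deposited and combined with their nuclear copies; left, plckGAPDH spleen minus wild-type spleen, right, plckGAPDH lymph node minus plckGAPDH spleen, dotted line the median of all genes tested. The mt-Co2 row (left, 1.98) and the mt-Co3 row (right, 3.14) stand apart as deposited, and move to 0.02 and 0.68 when combined.

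The nuclear genes that run this genome were described from 5 lists with 143 genes in the table, of which 142 were tested in each comparison. The lists are small beside the whole table, and their counts are descriptions. In plckGAPDH against wild-type spleens none of the 142 was called (2 at an unadjusted p under 0.05), against 1.44% of all genes tested, and none had groups that did not overlap, against 7.27%. Fold changes were below 0 for 41 of 142 and above 0 for the rest, with a median of 0.17 beside 0.02 for all genes tested. This median was -0.04 with nuclear scaling (all genes -0.18), -0.06 without spleen 547, -0.09 without wild-type spleen 4, 0.10 without the unnumbered spleen, 0.31 without spleen 508, 0.32 without spleen 343 and 0.40 without wild-type spleen 5. The mitochondrial ribosomal proteins, which bind the 2 ribosomal RNAs, were above 0 for 69 of 77, with a median of 0.28. For them the count was 48 with nuclear scaling, 49 without spleen 547 and 41 without wild-type spleen 4, with medians of 0.06, 0.05 and 0.02, and without wild-type spleen 5 it was 75, with a median of 0.55. Without spleen 343 the median was 0.44. Summed FPKM of 5 proliferation markers was 79.9, 144, 503 and 293 in plckGAPDH spleens 343, 508, 547 and unnumbered. It was 51.9, 78.6 and 35.8 in wild-type spleens 1, 4 and 5. The sums of plckGAPDH spleen 343 and wild-type spleen 4 almost met. Of the markers, Mki67 and Top2a did not overlap between the genotypes, while Ccnb1, Cdk1 and Birc5 did. The part of proliferation in these medians was not tested. The medians of the other lists were 0.05 (transcription and maintenance of mitochondrial DNA, 21 genes), 0.15 (RNA processing and turnover, 23 genes), 0.06 (modification of ribosomal RNA and ribosome assembly, 15 genes) and -0.10 (regulators of mitochondrial biogenesis, 9 genes).

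Rexo2, an exonuclease that degrades very short RNAs in mitochondria, had the largest fold change of these genes. It stood at 16.8, 127, 240 and 96.3 FPKM in plckGAPDH spleens 343, 508, 547 and unnumbered, against 23.2, 21.1 and 28.6 FPKM in wild-type spleens 1, 4 and 5. Spleen 343 lay below all wild-type spleens and the other 3 above them. The log2 fold change was 1.77 (SE 0.71, limma FDR 0.454), and 2.53 (limma FDR 0.0127) without spleen 343.

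Mrpl17, a protein of the large ribosomal subunit, stood at 16.7, 29.1, 65.6 and 22.9 FPKM in the plckGAPDH spleens, against 12.03, 9.11 and 18.6 FPKM in the wild-type spleens, and differed by 1.15 (SE 0.49, limma FDR 0.500). Mrps7, of the small subunit, differed by 0.96, with a limma FDR of 0.622. Tk2, the thymidine kinase that supplies mitochondrial DNA synthesis, stood at 10.8, 4.51, 4.07 and 7.34 FPKM in the plckGAPDH spleens, against 19.5, 6.31 and 17.8 FPKM in the wild-type spleens. Its fold change was -0.96 (SE 0.47, limma FDR 0.620). Rrm2b, the ribonucleotide reductase subunit that serves resting cells, was at -0.56. The unadjusted smallest p in the other lists belonged to Slirp (0.59, a partner of Lrpprc in messenger stability), Rpusd4 (-0.36) and Mrm1 (-0.35), which both modify the 16S RNA, Myc (0.64) and Esrra (-0.40), and none was called.

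In lymph nodes against spleens of plckGAPDH mice none of the 142 nuclear genes was called (3 at an unadjusted p under 0.05), against 0.0146% of all genes tested. Fold changes were below 0 for 137 of 142, with a median of -0.54 beside -0.59 for all genes tested. With median-of-ratios scaling the list median was 0.11 beside -0.01, and with nuclear scaling -0.78 beside -0.76. The groups did not overlap for 36 of 142, all lower in lymph nodes, against 30% of all genes tested in that direction, so the share was no higher than in the table as a whole. Nuclear partners therefore lay with the median of all genes under the deposited scale, while the mitochondrial messengers lay above it.

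Polg, the catalytic subunit of the mitochondrial DNA polymerase, stood at 8.75 and 10.3 FPKM in lymph nodes 455 and 508, against 21.5, 13.1, 22.3 and 25.4 FPKM in plckGAPDH spleens 343, 508, 547 and unnumbered. Both lymph nodes were below all plckGAPDH spleens, and the log2 fold change was -1.003 (SE 0.42, limma FDR 0.359). Gabpa, a transcription factor of nuclear genes for mitochondrial proteins, stood at 9.01 and 6.73 FPKM in the lymph nodes, against 16.02, 9.86, 20.3 and 19.6 FPKM in the plckGAPDH spleens (-0.94, limma FDR 0.359). Nrf1, another such factor, was at -0.96, Mterf3, a regulator of mitochondrial transcription, at -0.88, and the RNA-binding proteins Ptcd1 and Ptcd2 at -0.75 and -0.88. Noa1 and Nsun4, which act in ribosome assembly, were at -0.91 and -0.64, and the ribosomal proteins Mrps25 and Mrpl49 at -1.04 and -1.05. The limma FDR of these 10 genes lay between 0.359 and 0.360.

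**Figure D5:**
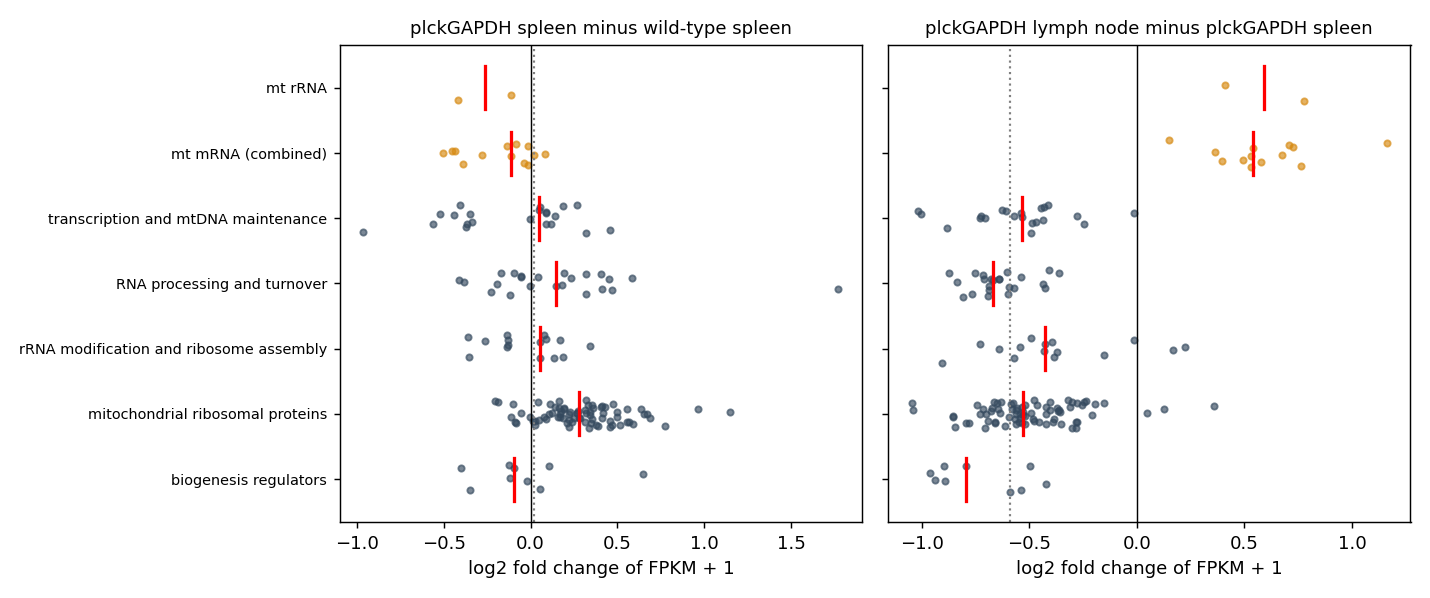
log2 fold changes of FPKM + 1 for the mitochondrial RNAs and 5 lists of nuclear genes, 1 point per gene with a red bar at each median; left, plckGAPDH spleen minus wild-type spleen, right, plckGAPDH lymph node minus plckGAPDH spleen, dotted line the median of all genes tested. On the right the combined messengers have a median of 0.54, while the 142 nuclear genes have one of -0.54, beside -0.59 for all genes.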

How the data were processed

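RNA of 9 libraries was sequenced as 2 reads of 75 bases per fragment, with 500 ng of input RNA and a stranded kit for total RNA, per the labels' protocols. The authors deposited FPKM per gene. Per the submitters' processing notes, STAR 2.4.0a, Bowtie2 2.2.6, RSEM, featureCounts and Subread 1.5.0-p3 were used with mm10 (GRCm38); which made the FPKM, the annotation and how reads matching 2 places were handled are not stated in those sources. FPKM are no counts, so limma 3.58.1 (R 4.3.3) with an intensity trend was fitted on log2(FPKM + 1) over the whole table, with 1 FPKM in 3 of 7 spleens or 2 of 9 samples. Fold changes on that scale understate low genes. Depth and effective length were fitted to the FPKM steps of single-transcript genes. Then 83.2% to 86.4% of low values lay within 0.15 of a whole fragment. With full gene length and only depth fitted, this was 47.1% to 55.9%, and 30% is the share by chance without any fit. The error of the depth on 3 simulated libraries was at most 0.294%. Whole fragments were not recovered for nearly all genes, so no count test was run. Copies were found with blastn 2.17.0 (plus strand) against GENCODE transcripts of single-transcript genes, and sequences were read from GENCODE transcripts (GRCm38). On simulated data with 200 changed genes, the spleen fit over 12607 genes recovered 36.5%, 82.5% and 93.5% of changes of 2, 3 and 4 on the log2 scale, with 1.35%, 5.17% and 6.97% of calls false; the lymph node fit over 13682 genes recovered 5.50%, 75.5% and 90.5%, with 0%, 11.2% and 8.12% false. At most 0.257% of values were identical in any of the 36 pairs of libraries. All mitochondrial ribosomal RNAs and messengers were named, and from each nuclear list the genes called or, with fewer than 2 called, the 2 with the smallest p. Members and lists were chosen with earlier results of these data known. Alternatives changed the pseudocount, filter, scaling, trend, weights and libraries; adding copies was chosen after seeing the data.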

Additional observations from a re-analysis of the deposited data

Results flagged for a closer look

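In the plckGAPDH spleens 1 library stood far from the others for 2 messengers, by Dixon's test at the 95% level. Spleen 508 had 2368 FPKM of mt-Atp6, against 580, 477 and 278 FPKM in spleens 343, 547 and unnumbered. Spleen 508 had 7089 FPKM of mt-Nd3, against 1615, 1153 and 1326 FPKM in those spleens. Summed FPKM of 5 plasma cell markers was 4390 in spleen 508, against 70.3, 294 and 180 in those spleens, and its part in these values was not tested. With their nuclear copies added, the 4 spleens had 8834 FPKM (508) against 10211, 2828 and 5001 FPKM for mt-Atp6, and 7089 FPKM (508) against 3940, 1889 and 3178 FPKM for mt-Nd3, and neither was set apart by the test. Of 41 groups of values tested, these were 2, and chance gives about 1 in 20.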

How the results depend on the processing

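The number of mitochondrial genes called stayed at 0 in lymph nodes against spleens under all alternatives run. In plckGAPDH against wild-type spleens it was 1 with sample quality weights and 1 without wild-type spleens 4 and 5, mt-Co2 in both cases, and 0 otherwise, leaving out each library included. The weights (whose fit did not converge fully) also called 7 nuclear genes (Mrpl45, Rrm2b, Mrpl27, Mrpl17, Rexo2, Tk2 and Mrps7), and leaving out each library gave 0 to 1. Of all genes tested, 181 were called in spleens, against 74 with no filter, 1863 with the weights and 12 without wild-type spleens 4 and 5. In lymph nodes 2 were called, against 5 with a pseudocount of 0.1, 5 with no filter, 4 with nuclear scaling, 1 with median-of-ratios scaling, 7 with the weights and 8 with only the plckGAPDH groups. Leaving out 1 spleen moved this count between 1 and 24, the highest without plckGAPDH spleen 508. Leaving out a lymph node leaves a single one, so no count is given for it. The log2 ratio of mean summed FPKM in lymph nodes over plckGAPDH spleens was 0.68 for messengers (deposited rows) and 0.42 for ribosomal RNA. These ratios were 1.35 and 1.14 with median-of-ratios scaling. With nuclear scaling both were above 0 but lower than on the deposited scale. On the deposited scale, leaving out each library gave 0.47 to 0.89 and 0.21 to 0.65. In plckGAPDH over wild-type spleens the log2 ratios were 0.11 and -0.18, and -0.16 to 0.46 and -0.43 to 0.13 with each library left out. With nuclear scaling both ratios were below 0, and lower than with any library left out. With copies added, the mean messenger sums were 79398 FPKM in lymph nodes, 57175 FPKM in plckGAPDH spleens and 56686 FPKM in wild-type spleens. On the deposited rows they were 49474.5, 30845 and 28558.5 FPKM. With nuclear scaling the median messenger fold change was 0.28 in lymph nodes and -0.34 in spleens, against 0.58 and -0.08 as deposited.

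Signs turned for fold changes of uncalled genes, the largest of them mt-Atp6 in spleens (0.96 on the deposited row); the cause was not tested. In spleens, nuclear scaling gave -0.17 for mt-Atp8 and -0.076 for mt-Nd3. The weights gave 0.028 for mt-Nd1, 0.035 for mt-Co1, -0.14 for mt-Atp8, -0.17 for mt-Atp6 and -0.70 for mt-Nd3. Without wild-type spleens 4 and 5, mt-Nd1 was at 0.014 and mt-Nd3 at -0.34. With copies added, mt-Atp6 was at -0.039, mt-Co3 at -0.013 and mt-Nd3 at -0.39, and with copies and median-of-ratios scaling mt-Co1 was at 0.026 and mt-Nd3 at -0.35. In lymph nodes nuclear scaling gave -0.16 for mt-Co1 and -0.10 for mt-Atp6. Leaving out each library in turn gave, in spleens, -0.23 to 0.48 for mt-Atp8, -0.46 to 0.34 for mt-Co1, -0.092 to 0.86 for mt-Co3, -0.56 to 0.25 for mt-Cytb, -0.42 to 0.30 for mt-Nd1, -0.41 to 0.46 for mt-Nd3, -1.54 to 0.24 for mt-Nd4l, -0.62 to 0.0068 for mt-Nd5 and -0.43 to 0.18 for mt-Rnr2, and in lymph nodes -0.21 to 0.81 for mt-Atp6, -0.47 to 0.73 for mt-Co1 and -0.10 to 1.18 for mt-Nd4. No paired analysis was possible because only animal 508 gave both tissues.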
